A study of Mus musculus with 12 samples.

Results

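Selpercatinib was compared with vehicle in the gastrocnemius, a large calf muscle, of tumour-bearing mice, across the whole expressed transcriptome. The genes are all those with a mean of at least 0.5 FPKM (reads per gene corrected for gene length and library scale, as deposited) over the 8 libraries of the 2 groups, which were 12696 of the 54532 genes listed. The mean stood at 0.5001 for Gm44667, the gene just inside this limit, and at 0.4997 for Gm12033, the gene just outside. All mice were female ICR SCID mice, a strain whose immunodeficiency leaves few mature lymphocytes. In the TL group, 4 mice bore HT1080 tumours under the skin, grown from this line of human fibrosarcoma cells, and were given selpercatinib at 30 mg/kg once daily by oral gavage for 19 days. In the TV group, 4 mice bore tumours of the same line and were given vehicle. A further 4 tumour-free mice on vehicle, the NTV group, entered the fit and are given as a side value. The study addresses cancer cachexia, the tumour-driven wasting of fat and muscle; every tumour came from 1 cell line. Replicates are described as biological, and neither the hour of sampling nor the time since the last dose is given in the sources used here.

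Selpercatinib inhibits the receptor tyrosine kinase RET, which receives ligands of the GDNF family through GFRA co-receptors and receives the hormone GDF15 through GFRAL, a receptor of the hindbrain. Wasting muscle raises a programme of ubiquitin ligases, autophagy and stress genes under FoxO factors and glucocorticoid hormone, while protein synthesis and mitochondrial genes shift with it. Muscle also runs a circadian clock, in which BMAL1 and CLOCK drive E-box genes, among them the repressors REV-ERB, Period and Cryptochrome, and this clock times the use of glucose and fat.

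Between 14939830 and 23580603 reads fell on genes in each TV and TL library, and the deposited scale equals median-of-ratios factors. Muscle identity genes were abundant in every library, with Acta1, skeletal actin, between 10596 and 30623 FPKM over both groups, so the defining markers of the labelled tissue were present. Of 14 lymphocyte markers 1 passed the filter, and Cd3d and Ms4a1 had 0 reads in all 8 libraries. Summed lymphocyte markers were 0.471 to 1.13 FPKM in TV and 0.403 to 1.98 in TL, but 5.57 to 16.1 in NTV. The source of this difference was not tested. The TL group was not uniform. On the second principal component TL replicates 1 and 5 stood at -32.1 and -32.4, whereas TL replicates 4 and 7 stood at -2.73 and 1.85 and the TV libraries between -2.08 and 17.7. Reads of the mitochondrial genome made up 10.1% and 13.9% of the reads in TL replicates 1 and 5, 6.04% and 6.55% in TL replicates 4 and 7, and between 5.08% and 7.70% in TV. Ucp1, the uncoupling protein of brown and beige fat, was at 58.3 and 3.97 FPKM in TL replicates 1 and 5, and at no more than 0.477 FPKM in the other TL and TV libraries. What part these 2 libraries and the fat or mitochondrial RNA in them have in the differences was not tested. Estimates without them are given beside many of the genes, and medians by library beside some of the lists.

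With selpercatinib, 30 genes were higher and 36 lower than with vehicle. Among the genes lower in TL were the clock repressors Nr1d1 and Ciart, the glycolytic activator Pfkfb3, the elongation factor Eef2, the lysosomal protease Ctsl and the amino acid transporter Slc43a1. Among those higher in TL were the lipid droplet enzyme Pnpla3, the myogenic factor Myod1 and the MEF2 coactivator Mamstr. Changes are given as log2 differences of FPKM + 0.5, estimate ± SE from limma, with Benjamini-Hochberg adjusted p over all 12696 genes; a gene is called at an adjusted p under 0.05. Called genes were 0.520% of those tested, 0.236% higher and 0.284% lower in TL. Estimates of called genes ran from -2.62 to 2.85, and 22 passed 2-fold, 11 in each direction. The 4 TL values lay entirely above or entirely below the 4 TV values for all 66 called genes, and for 7.42% of all genes tested (3.36% above and 4.06% below). At an unadjusted p under 0.05, 2058 genes or 16.2% stood out. Of the called genes, Gm4613, Galnt17, Hist1h1b and Gm26064 had a mean under 0.5 FPKM in one group and passed the filter through the other, so a difference was built into their choice and their values are a description. In bulk muscle, fewer cells of a type and less RNA per cell cannot be told apart.

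**Figure D1:**
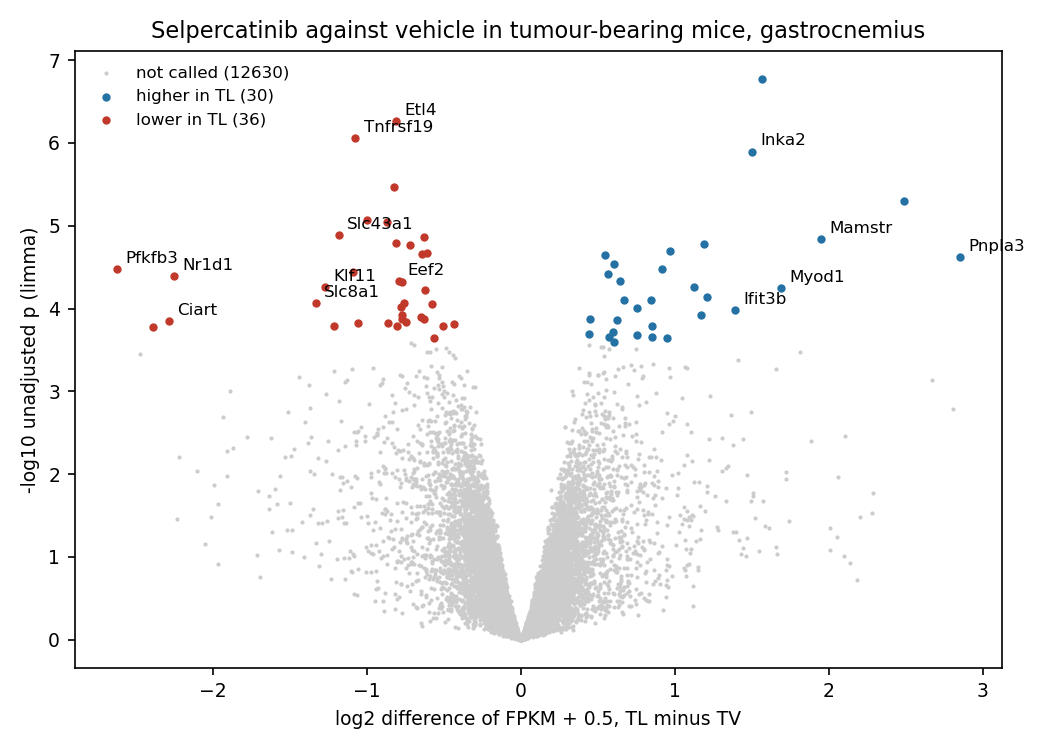
Each point is 1 of 12696 genes; the x axis is the log2 difference of FPKM + 0.5 between TL and TV and the y axis is -log10 of limma's unadjusted p. The 30 genes called higher (blue) and the 36 called lower (red) reach from -2.62 (Pfkfb3) to 2.85 (Pnpla3).

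The number of calls depended on single libraries. It was 7 without TL replicate 5, 12 without TL replicate 1, 28 without TL replicate 7 and 282 without TL replicate 4. It was 22, 24, 123 and 84 without TV replicates 3, 4, 6 and 8, and between 43 and 54 without one or another NTV library. With only the 8 TL and TV libraries in the fit, 8 genes were called, and without TL replicates 1 and 5 together 4 were (Gm45819, Etl4, Tnfrsf19 and Gm9625). All 66 genes kept the sign of their estimate without those 2 libraries, with a median size of 0.71 against 0.81 with all libraries; the other 62 calls ended there, at adjusted p from 0.0739 (Pdzrn3) to 0.457. After rescaling to an equal total per library, 43 genes were called, 33 higher and 10 lower, or 76.7% higher against 45.5% on the deposited scale. Leaving out also the mitochondrial genes and the 50 most abundant genes before rescaling gave 40 higher and 23 lower, or 63.5% higher. The calls that held when any 1 of the 12 libraries was left out were Gm45819, Etl4, Tnfrsf19, Inka2, Pdzrn3, Gm4613 and Gm9625. Of these, Gm4613 passed the filter only through TL, so its place here is a description. Each of the other 59 calls ended without at least 1 library, 59 of them without TL replicate 5 and 55 without TL replicate 1, at adjusted p of at most 0.167.

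Promoter sequence was read for the called genes from RefSeq windows of 300 bases, 250 before and 50 after each start (GRCm38.p6) and searched for motifs of factors that act in muscle, among them clock, forkhead and myogenic factors. Windows matched 49 of the 66 called genes, 20 higher and 29 lower in TL; none was at hand for Myod1. Of 10 motifs searched on both strands, picked with results of these data known, 3 are described here. CACGTG is the E-box bound by clock factors and by the MYC family; it stood in the windows of 8 of the 29 lower genes (Etl4, Tnfrsf19, Slc43a1, Pfkfb3, Eef2, Klf11, Ctsl and Ciart), of 0 of the 20 higher genes, of 12.1% of all tested genes with a window, and in 7.15% of all 32851 windows. TGTTTAC is the forkhead site; it stood at 6 of 29 lower genes (Etl4, Ythdc1, Kctd20, Hbp1, Atp2c1 and Zfp874b), at 0 of 20 higher genes, at 3.06% of tested genes and in 3.65% of windows. CAGCTG is an E-box that MyoD can bind, and it stood at 7 of 20 higher genes, 8 of 29 lower genes, 18.1% of tested genes and 16.3% of windows. The other 7 motifs stood at no more than 3 of the lower and 2 of the higher genes. They were AGGTCA (16.3% of windows), TTATGTAA (0.938%), TTACGTAA (0.119%), TGTTCT (19.0%), TGACTCA (5.2%), TTCNNNGAA (8.30%) and TCACNCCAC (1.24%). In that order they stood at 15%, 0.619%, 0.191%, 14.4%, 4.28%, 8.03% and 1.41% of tested genes with a window. Among called genes with a window the shares were 6.12%, 2.04%, 0%, 4.08%, 8.16%, 6.12% and 0%. A match is only a run of letters in this window. The windows below show the first of these in 3 lower genes (CACGTG in capitals); Ciart holds 3 copies, the first 116 bases before its start, and none lay in the window of Nr1d1.
Ciart, chr3:95882179-95882478, minus strand: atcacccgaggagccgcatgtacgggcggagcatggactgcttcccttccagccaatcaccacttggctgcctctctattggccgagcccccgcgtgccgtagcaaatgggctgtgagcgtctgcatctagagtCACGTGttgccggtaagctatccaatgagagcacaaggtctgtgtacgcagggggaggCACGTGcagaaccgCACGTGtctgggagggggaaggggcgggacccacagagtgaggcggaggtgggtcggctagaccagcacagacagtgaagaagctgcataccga
Pfkfb3, chr2:11502041-11502340, minus strand: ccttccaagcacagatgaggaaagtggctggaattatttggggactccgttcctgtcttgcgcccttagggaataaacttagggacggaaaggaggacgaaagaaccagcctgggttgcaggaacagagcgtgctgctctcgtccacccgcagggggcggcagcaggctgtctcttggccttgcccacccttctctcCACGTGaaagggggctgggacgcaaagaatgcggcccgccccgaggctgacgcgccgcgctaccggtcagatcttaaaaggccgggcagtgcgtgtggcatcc
Klf11, chr12:24651121-24651420, plus strand: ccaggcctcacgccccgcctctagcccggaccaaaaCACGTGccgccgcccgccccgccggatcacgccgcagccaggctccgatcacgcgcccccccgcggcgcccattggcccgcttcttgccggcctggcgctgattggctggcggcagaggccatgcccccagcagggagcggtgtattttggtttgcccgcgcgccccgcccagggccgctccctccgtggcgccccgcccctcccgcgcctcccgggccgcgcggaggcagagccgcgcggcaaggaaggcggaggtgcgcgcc

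The next pair shows the forkhead site in 2 lower genes, TGTTTAC in capitals, which reads GTAAACA on the printed strand of Hbp1.
Hbp1, chr12:31950196-31950495, minus strand: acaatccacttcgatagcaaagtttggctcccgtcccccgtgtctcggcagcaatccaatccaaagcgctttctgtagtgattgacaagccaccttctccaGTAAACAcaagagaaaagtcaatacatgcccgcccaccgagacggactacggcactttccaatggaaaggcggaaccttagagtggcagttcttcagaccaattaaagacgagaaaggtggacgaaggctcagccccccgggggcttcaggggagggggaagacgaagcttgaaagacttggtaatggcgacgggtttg
Kctd20, chr17:28952966-28953265, plus strand: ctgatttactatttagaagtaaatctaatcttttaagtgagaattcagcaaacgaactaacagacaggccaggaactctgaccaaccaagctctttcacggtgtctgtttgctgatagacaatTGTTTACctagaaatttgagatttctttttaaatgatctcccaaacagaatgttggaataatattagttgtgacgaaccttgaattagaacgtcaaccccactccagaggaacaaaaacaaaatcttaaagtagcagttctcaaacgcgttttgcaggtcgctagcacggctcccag

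The last pair belongs to the higher genes with the largest estimates among coding genes, with CAGCTG in capitals.
Mamstr, chr7:45639727-45640026, plus strand: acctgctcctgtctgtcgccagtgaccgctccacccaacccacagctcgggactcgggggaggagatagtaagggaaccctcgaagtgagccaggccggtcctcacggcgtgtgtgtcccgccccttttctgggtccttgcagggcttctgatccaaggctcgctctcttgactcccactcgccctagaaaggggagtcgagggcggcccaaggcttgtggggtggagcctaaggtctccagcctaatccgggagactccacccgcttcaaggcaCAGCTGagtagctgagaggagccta
Pnpla3, chr15:84167566-84167865, plus strand: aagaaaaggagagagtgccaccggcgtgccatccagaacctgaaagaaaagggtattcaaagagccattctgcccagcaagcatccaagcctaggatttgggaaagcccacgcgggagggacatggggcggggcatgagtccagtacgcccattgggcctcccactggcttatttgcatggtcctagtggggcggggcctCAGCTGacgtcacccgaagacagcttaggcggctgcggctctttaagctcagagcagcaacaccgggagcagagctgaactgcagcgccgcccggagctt

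The clock repressors were among the lowest genes of TL relative to TV. Nr1d1 encodes REV-ERB alpha, which represses Arntl (the BMAL1 gene). It was at 21.004, 19.7, 61.1 and 53.5 FPKM in TV replicates 3, 4, 6 and 8, and at 6.61, 6.75, 4.76 and 9.92 FPKM in TL replicates 1, 4, 5 and 7. TV split into a low and a high pair, and every TL value lay below both. Tumour-free mice held 55.5 ± 11.6 FPKM (SD, n = 4). The TL mean of 7.01 FPKM lay further from this level than the TV mean of 38.8. The estimate was -2.25 ± 0.36 (adjusted p = 0.0205, limma) and -1.996 without TL replicates 1 and 5 (adjusted p = 0.315). Nr1d1 overlaps the end of Thra on the opposite strand, and the sources used here do not give the strand setting of the counting; Thra had an estimate of -0.50 and was not called. Ciart encodes CHRONO, a repressor of CLOCK and BMAL1. Its levels were 6.21, 6.26, 6.61 and 8.70 FPKM in TV and 0.575, 1.47, 0.845 and 1.33 FPKM in TL, in the same order of replicates. The groups stood well apart, at an estimate of -2.29 ± 0.42 (adjusted p = 0.0364, limma) and -1.96 without TL replicates 1 and 5 (adjusted p = 0.457). For Ciart, unlike Nr1d1, the tumour-free level of 2.43 ± 1.76 FPKM lay between the TL mean of 1.06 and the TV mean of 6.94. Both calls ended without TL replicate 1 or TL replicate 5 (adjusted p at most 0.087 for Nr1d1 and 0.139 for Ciart); that of Ciart also ended without TL replicate 7, TV replicate 3, 4 or 8, or NTV replicate 3.

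The rest of the clock list was not called. Of 20 clock genes 19 were tested; 2 fell, 0 rose, and 14 estimates lay below 0, with a median of -0.36 against -0.0037 and 50.7% below 0 over all genes. Cry1, a Cryptochrome repressor, was at 4.64 to 6.22 FPKM in TV and 7.13 to 9.65 in TL, without overlap (0.66 ± 0.16, adjusted p = 0.0995, limma). Its paralogue Cry2 was at 9.11 to 22.2 FPKM in TV and 7.48 to 8.98 in TL, also without overlap but with the opposite sign (-0.84 ± 0.24, adjusted p = 0.136). Nr1d2, which encodes REV-ERB beta, was between 28.1 and 29.5 FPKM in all 4 TL libraries and between 32.5 and 44.3 in TV. Among the activating arm, Arntl overlapped between the groups at 1.28 to 3.53 FPKM in TV and 2.42 to 3.92 in TL. Dbp and Per1, E-box outputs of the clock, also overlapped, with estimates of -0.96 and -1.12 and adjusted p of 0.391 and 0.407 (-1.37 and -0.50 without TL replicates 1 and 5). The spread of these genes was wide in the tumour-free mice as well, where Ciart ran from 0.436 to 4.34 FPKM and Per1 from 1.72 to 23.2 FPKM.

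**Figure D2:**
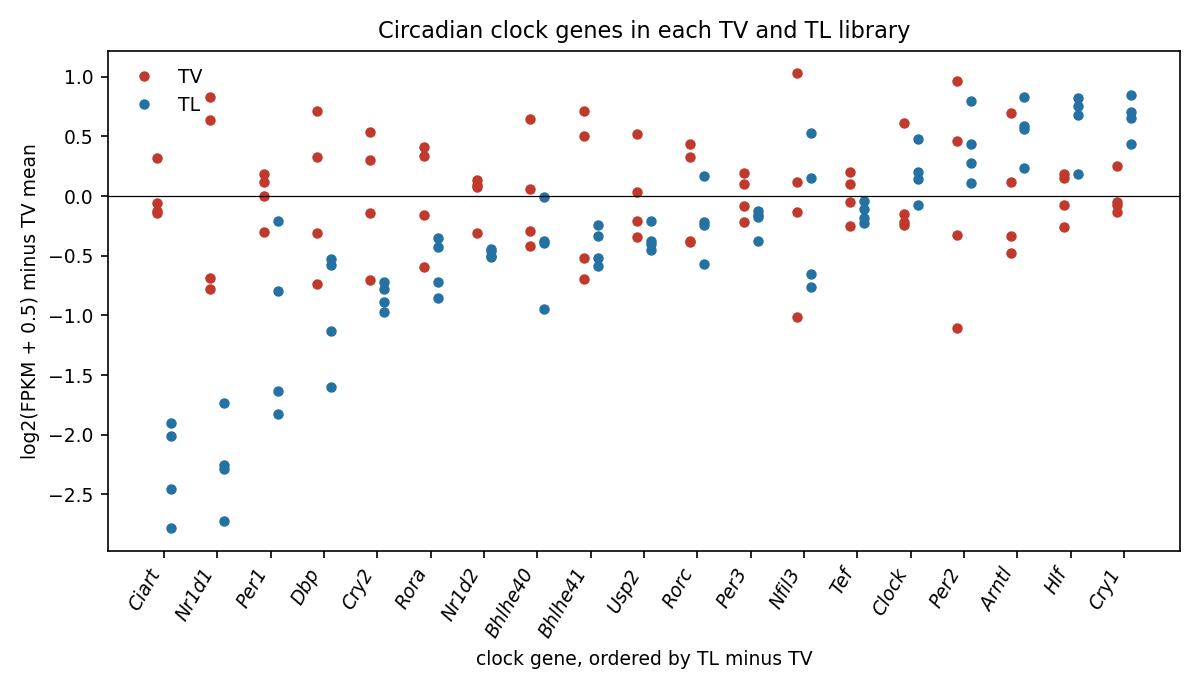
For each of 19 clock genes, ordered by the TL minus TV estimate, points show log2(FPKM + 0.5) minus the TV mean in the 4 TV (red) and 4 TL (blue) libraries. Ciart and Nr1d1 lie lowest, with estimates of -2.29 and -2.25, and Cry1 highest at 0.66.

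Among metabolic enzymes, Pfkfb3 had the lowest estimate of all called genes. Its product makes fructose 2,6-bisphosphate, the main activator of phosphofructokinase in glycolysis. It stood at 126, 153, 155 and 104 FPKM in TV replicates 3, 4, 6 and 8 and at 13.2, 27.2, 10.99 and 49.3 FPKM in TL replicates 1, 4, 5 and 7. All TL values were under the TV range, with TL replicates 1 and 5 lowest, and tumour-free mice held 43.5 ± 15.1 FPKM (SD, n = 4). The estimate was -2.62 ± 0.41 (adjusted p = 0.0194, limma) and -1.84 without TL replicates 1 and 5 (adjusted p = 0.216); leaving out TL replicate 1 or 5 alone, or TV replicate 3 or 4, also ended the call (adjusted p at most 0.0674). Pfkfb3 was the 1 called gene of 32 in the glycolysis and glycogen list, whose median estimate was 0.04.

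Pnpla3 had the highest estimate. It encodes a patatin-like lipase of lipid droplets and is known in liver as a target of the lipogenic factor SREBP-1c. TV replicates 3, 4, 6 and 8 held 0.530, 1.01, 4.21 and 2.47 FPKM, and TL replicates 1, 4, 5 and 7 held 17.2, 11.6, 20.7 and 12.5 FPKM. Every TL library was above every TV library, with TL replicates 1 and 5 highest. Mir6392, a microRNA gene on the same strand, overlaps Pnpla3. The estimate was 2.85 ± 0.43 (adjusted p = 0.0159, limma) and 2.54 without TL replicates 1 and 5 (adjusted p = 0.257); leaving out TL replicate 1, TL replicate 5 or TV replicate 4 also ended the call (adjusted p at most 0.0677). Pnpla3 was the 1 called gene of 27 tested in the fatty acid and sterol synthesis list. There 26 estimates lay above 0 (median 0.34, with 49.3% above 0 over all genes). The list median relative to the TV mean was 0.63, -0.07, 0.77 and -0.01 in TL replicates 1, 4, 5 and 7.

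The other lipogenic genes followed 2 libraries rather than the group. Scd1, a desaturase, was at 318 and 680 FPKM in TL replicates 1 and 5 and at 17.8 and 21.8 in TL replicates 4 and 7, beside 11.9 to 32.7 in TV. Fasn, fatty acid synthase, was at 137 and 121 FPKM in TL replicates 1 and 5 and at 14.9 and 3.66 in the other TL libraries, beside 4.66 to 11.5 in TV. Acly, Elovl6 and Thrsp had the same shape, and none of these genes was called (estimates of 1.55 to 2.28, adjusted p of 0.254 to 0.4). Without TL replicates 1 and 5 the estimate of Scd1 was -0.25 and that of Fasn 0.09. The summed level of 15 adipocyte markers was 2400 and 2493 FPKM in those 2 libraries, 1333 and 1153 in TL replicates 4 and 7, and 1046 to 2061 in TV. Over the groups the sum did not separate (exact permutation test, two-sided p = 0.4, adjusted p = 0.56 over 14 library measures, smallest possible p 0.0286, n = 4). Fabp4 in this list is also listed as an endothelial marker, so the sum is not a measure of fat alone. The list median relative to the TV mean was 1.11, -0.24, 1.55 and -0.81 in TL replicates 1, 4, 5 and 7. It ran from -0.66 to 0.56 in the TV libraries. Adipoq, the adipocyte hormone, was at 51.2 and 66.0 FPKM in TL replicates 1 and 5 and at 13.05 and 7.30 in TL replicates 4 and 7, beside 11.2 to 33.6 in TV. The part of fat RNA in the lipogenic values was not tested.

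Smaller changes touched other metabolic genes. Aspa, which cleaves N-acetylaspartate to acetate and aspartate, was at 0.492 to 0.780 FPKM in TV and 1.33 to 2.02 in TL (0.97 ± 0.14, adjusted p = 0.0158, limma; 0.77 and 0.255 without TL replicates 1 and 5). Galm, galactose mutarotase, was higher in TL by 0.85, Rdh13, a mitochondrial retinol dehydrogenase, by 0.75, and Mmaa, a helper of mitochondrial cobalamin metabolism, by 0.64. Them4, an acyl-CoA thioesterase, and C1qtnf9, a secreted protein of the C1q/TNF family, were higher by 0.45 and 0.44. These 6 genes had adjusted p between 0.0158 and 0.0447 (limma), and all levels were low, with TL means of 1.70 to 4.47 FPKM apart from 12.2 for C1qtnf9. Among broad mitochondrial lists, 63 of 78 nuclear genes of oxidative phosphorylation had estimates above 0 (median 0.12), where 49.3% of all genes did. Of these 78 genes 0 were called and 6 were higher in TL at an unadjusted p under 0.05, where 7.14% of all genes were. Their median relative to the TV mean was 0.19, -0.16, 0.47 and -0.01 in TL replicates 1, 4, 5 and 7. By library, the median of the 13 mitochondrial genome transcripts was 0.51 and 1.09 above the TV mean in TL replicates 1 and 5, and 0.29 and 0.21 below it in TL replicates 4 and 7.

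**Figure D3:**
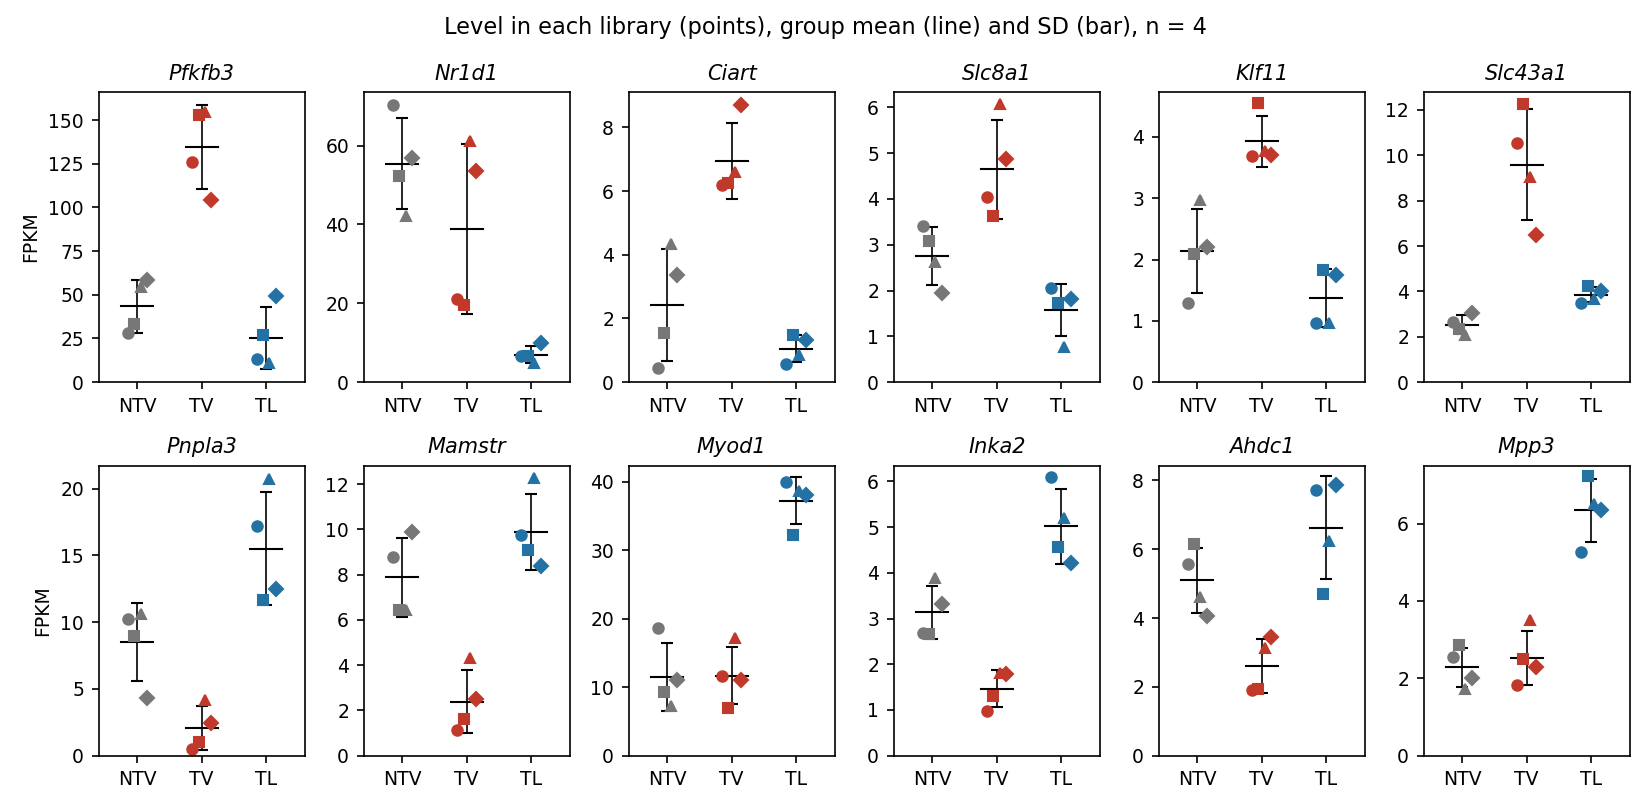
FPKM of 6 lower (top) and 6 higher (bottom) called genes in each NTV (grey), TV (red) and TL (blue) library; lines are group means and bars SD (n = 4), and marker shapes give the replicates of a group in ascending order. Every TL point lies outside the TV range in all 12 panels, while NTV lies near TL for Mamstr and near TV for Myod1.

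The myogenic regulators Myod1 and Mamstr were higher in TL. Myod1, the basic helix-loop-helix factor that sets muscle identity, was at 11.7, 6.98, 17.2 and 10.998 FPKM in TV replicates 3, 4, 6 and 8 and at 40.05, 32.2, 38.7 and 38.02 FPKM in TL replicates 1, 4, 5 and 7. The TL libraries were close to each other and all above TV, at 1.69 ± 0.28 (adjusted p = 0.0232, limma), and 1.61 without TL replicates 1 and 5 (adjusted p = 0.341). Tumour-free mice held 11.6 ± 4.96 FPKM (SD, n = 4), near the TV mean of 11.7 ± 4.20. Mamstr, a SAP-domain coactivator of MEF2 factors, was at 1.14, 1.61, 4.30 and 2.48 FPKM in TV and 9.73, 9.11, 12.3 and 8.38 FPKM in TL. The groups did not overlap (1.95 ± 0.28, adjusted p = 0.0155, limma; 1.80 and 0.243 without TL replicates 1 and 5), and here tumour-free mice held 7.88 ± 1.73 FPKM. Without TL replicate 1 or 5 both calls ended, and that of Myod1 also when TL replicate 7 or TV replicate 3 or 4 was dropped (adjusted p at most 0.087).

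Other myogenic factors did not pass the test. Of 22 myogenic and embryonic genes tested, Myod1 and Mamstr rose and 0 fell, and the median was 0.05. Myog, which acts after Myod1 in differentiation, overlapped at 15.5 to 40.2 FPKM in TV and 18.8 to 47.2 in TL (0.33 ± 0.31, adjusted p = 0.648, limma; 0.80 without TL replicates 1 and 5), and Myf6 had an estimate of -0.41 (adjusted p = 0.505). The adult myosin heavy chains were not called either. Myh4, the fastest isoform, was at 5214 to 9706 FPKM in TV and 4721 to 6889 in TL, and Myh7, the slow isoform, at 19.8 to 177 FPKM in TV and 64.8 to 163 in TL. TV replicate 6 held the lowest slow-fibre genes, with a list median 1.83 below the TV mean, and TV replicate 3 the highest at 1.17 above it. Satellite cell markers, 11 tested, gave 0 calls and a median of -0.04.

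Chromatin and transcription regulators moved in both directions. Klf11, a Krüppel-like repressor linked to TGF-beta signalling, was at 3.70, 4.55, 3.77 and 3.70 FPKM in TV replicates 3, 4, 6 and 8 and at 0.973, 1.82, 0.968 and 1.75 FPKM in TL replicates 1, 4, 5 and 7. The drop was present in every TL library, at -1.27 ± 0.21 (adjusted p = 0.0232, limma; -0.95 and 0.34 without TL replicates 1 and 5). Hbp1, an HMG-box repressor of cell-cycle genes, was at 11.2 to 14.7 FPKM in TV and 6.42 to 8.99 in TL, an estimate of -0.76 (-0.55 without TL replicates 1 and 5, adjusted p = 0.341, limma); it overlaps Cog5 on the other strand. Also lower were the histone chaperone Daxx (-0.43), the histone methyl-lysine reader Phf13 (-0.62), and the zinc-finger genes Zswim4 (-0.77) and Zfp874b (-0.86). Higher were Smarca2, the BRM ATPase of SWI/SNF complexes, Wdr82, a subunit of a histone H3 lysine methyltransferase complex, the repressor Atxn1 and the AT-hook gene Ahdc1. Smarca2 was at 3.03 to 3.34 FPKM in TV and 4.36 to 5.45 in TL (0.55 ± 0.08, adjusted p = 0.0158, limma), with a narrow spread in each group, and at 0.46 without TL replicates 1 and 5 (adjusted p = 0.257). Wdr82, Atxn1 and Ahdc1 had estimates of 0.61, 0.63 and 1.21. The zinc-finger genes Zfp322a and Zfp213 were higher by 0.57 and 0.60. The linker histone gene Hist1h1b, at 0.0552 to 0.377 FPKM in TV with a mean of 0.907 in TL, passed the filter only through TL, so its estimate of 1.13 is a description. Atxn1 overlaps Gmpr, an abundant gene on the other strand.

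Of the listed genes of protein synthesis and breakdown, Eef2 and Ctsl were called lower, and their lists held no other call. Eef2, which moves the ribosome along the message, was at 836, 749, 799 and 842 FPKM in TV replicates 3, 4, 6 and 8 and at 460, 555, 429 and 428 FPKM in TL replicates 1, 4, 5 and 7. Both groups were tight and far apart (-0.79 ± 0.13, adjusted p = 0.0219, limma; -0.73 and 0.301 without TL replicates 1 and 5). Side by side with the tumour-free group, in fits that share libraries, Eef2 had an estimate of 0.79 for TV minus NTV (adjusted p = 0.00225, where 24.6% of genes were called) and 0.00 for TL minus NTV (adjusted p = 0.995, where 8.18% were called). Among 30 translation factors 1 fell, 0 rose and 25 estimates lay below 0, with a median of -0.16. Over all genes, 50.7% of estimates lay below 0. Eif1 and Eif4b did not overlap between the groups but missed the threshold (adjusted p of 0.0797 and 0.0833, limma). Of 73 ribosomal protein genes 0 were called while 68 estimates lay below 0 (median -0.25), and 13 were lower at an unadjusted p under 0.05, where 9.07% of all genes were. By library, their median was 0.50 and 0.39 below the TV mean in TL replicates 1 and 5, 0.02 above it in TL replicate 4 and 0.15 below it in TL replicate 7.

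Slc43a1 encodes LAT3, a carrier of large neutral amino acids. It was at 10.5, 12.3, 9.05 and 6.51 FPKM in TV replicates 3, 4, 6 and 8 and at 3.48, 4.23, 3.67 and 4.03 FPKM in TL replicates 1, 4, 5 and 7. TL was narrow and wholly below TV (-1.18 ± 0.17, adjusted p = 0.0155, limma; -1.09 and 0.243 without TL replicates 1 and 5), and tumour-free mice held 2.53 ± 0.426 FPKM (SD, n = 4). Slc43a1 was the 1 called gene of 21 in the glutamine and amino acid list. Sesn2, a leucine sensor that restrains mTORC1, was at 0.644 to 0.815 FPKM in TV and 1.15 to 1.58 in TL (0.60 ± 0.11, adjusted p = 0.0410, limma; 0.70 and 0.243 without TL replicates 1 and 5). Its call ended in 11 of the 12 fits with 1 library left out. Sesn1, its paralogue and a FoxO target, pointed the other way at 26.1 to 64.4 FPKM in TV and 13.9 to 20.2 in TL, without overlap, and missed the threshold (-1.21 ± 0.26, adjusted p = 0.0713).

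On the side of breakdown, Ctsl, the lysosomal cathepsin L, was at 54.4, 53.5, 42.9 and 41.3 FPKM in TV and 21.8, 31.9, 27.8 and 30.7 FPKM in TL, in the same order of replicates. All TL values lay below TV (-0.77 ± 0.14, adjusted p = 0.0357, limma; -0.60 and 0.341 without TL replicates 1 and 5), and Ctsl was the 1 called gene of 30 in the autophagy and lysosome list. Ddi2, a protease that activates the proteasome regulator NFE2L1, was at 17.2 to 27.9 FPKM in TV and 8.67 to 14.7 in TL (-1.09 ± 0.17, adjusted p = 0.0199, limma; -0.84 and 0.276 without TL replicates 1 and 5). The cullin-3 adaptor Klhl21 was at 61.7 to 90.6 FPKM in TV and 39.7 to 47.9 in TL, and the adaptor Kbtbd8 of the same class was higher in TL, by 0.85 from under 1 FPKM. The ubiquitin ligase Pdzrn3, which acts in myoblast differentiation and at the neuromuscular synapse, was at 27.1, 32.3, 29.9 and 30.8 FPKM in TV and 18.5, 16.6, 16.9 and 14.9 in TL. Its call held with any 1 library left out (-0.83 ± 0.10, adjusted p = 0.00854, at most 0.036, limma) and ended without TL replicates 1 and 5 together (-0.91, adjusted p = 0.0739). The deubiquitinase Mindy1 was lower by 0.61; its start overlaps that of Prune1 on the other strand, which was lower by 0.57, and with the strand setting unknown their reads cannot be told apart there. The RNA-binding proteins Samd4 and Ythdc1, a translational repressor and a reader of methylated adenosine, were lower by 0.81 and 0.63. Tbc1d17, a Rab GTPase activator, and Tmbim1, of the Bax inhibitor family, were lower by 0.63 and 0.56, and the genes Kctd20 and Ubald1 by 0.72 and 0.64. Naa60, a Golgi N-terminal acetyltransferase, was higher by 0.58. Tbc1d17 (mean of 6.92 FPKM over the 8 libraries) overlaps Akt1s1, at 56.3 FPKM on the other strand, Tmbim1 overlaps Pnkd and Naa60 overlaps Zfp597, so the same doubt about strand holds for them.

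The classical atrophy genes were not called in the main fit, although Fbxo32 was called in 2 of 30 other settings. Trim63, the ubiquitin ligase MuRF1, was at 815, 425, 196 and 185 FPKM in TV replicates 3, 4, 6 and 8 and at 43.5, 215, 49.4 and 134 FPKM in TL replicates 1, 4, 5 and 7. TL replicate 4 lay above 2 TV libraries, and the spread within TV was wide (-1.91 ± 0.56, adjusted p = 0.147, limma; -0.98 without TL replicates 1 and 5). Fbxo32, the ligase atrogin-1, was at 278, 277, 121 and 72.7 FPKM in TV and 17.2, 112, 30.7 and 61.3 FPKM in TL, again with TL replicate 4 inside the TV range (-1.87 ± 0.54, adjusted p = 0.145, limma; -0.95 without TL replicates 1 and 5). Foxo1, the factor above both, overlapped at 3.49 to 12.7 FPKM in TV and 3.31 to 11.3 in TL. Of the 32 FoxO and glucocorticoid responsive genes tested 0 were called, 28 estimates lay below 0 with a median of -0.55, and 11 were lower at an unadjusted p under 0.05. Over all genes, 50.7% of estimates lay below 0 and 9.07% of genes were lower at that p. By library the median of the list was 0.83, 0.23, 0.76 and 0.42 below the TV mean in TL replicates 1, 4, 5 and 7, while TV replicates 6 and 8 were 0.42 and 0.32 below it. Among the members, Pdk4, a brake on pyruvate oxidation, had an estimate of -2.01 ± 0.83, the metallothionein Mt1 -2.10 ± 0.68 and the insulin receptor substrate Irs2 -1.91 ± 0.63, none of them called; without TL replicates 1 and 5 these were -1.61 for Pdk4, -1.15 for Mt1 and -0.73 for Irs2. Fkbp5, a glucocorticoid receptor target, was at 9.34 to 28.6 FPKM in TV and 9.34 to 23.9 in TL, at -0.13 ± 0.47 (adjusted p = 0.924).

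**Figure D4:**
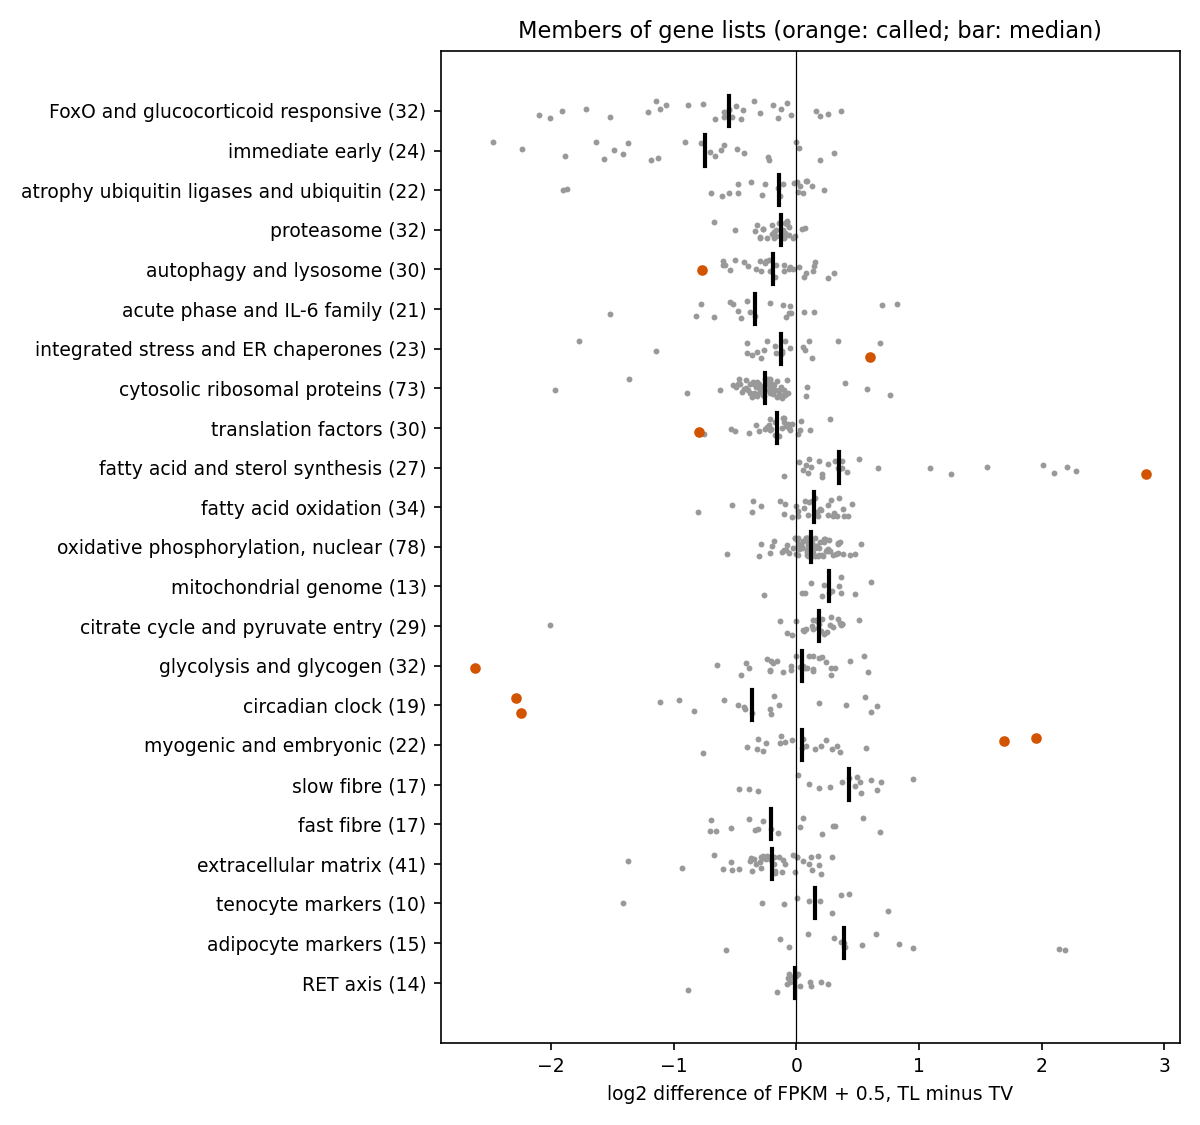
Each grey point is the TL minus TV estimate of 1 member of a gene list, in log2 of FPKM + 0.5, with called genes in orange, the median as a bar and the number tested in parentheses. Medians reach from -0.74 for immediate early genes to 0.43 for slow fibre genes, and the called members are Nr1d1, Ciart, Pfkfb3, Pnpla3, Myod1, Mamstr, Ctsl, Eef2 and Sesn2.

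Stress lists held few calls. Of 24 immediate early genes 0 were called, 21 estimates lay below 0 with a median of -0.74, and 12 were lower at an unadjusted p under 0.05. Over all genes, 50.7% of estimates lay below 0 and 9.07% of genes were lower at that p. Relative to the TV mean, the list median was -1.12, -0.09, -1.71 and -0.47 in TL replicates 1, 4, 5 and 7. TV replicate 4 stood at -0.38, so TL replicate 4 lay inside the TV range. Maff, a small MAF factor, was at 31.5, 13.7, 9.93 and 26.3 FPKM in TV and 2.32, 4.80, 2.26 and 2.74 FPKM in TL. The groups did not overlap, yet the estimate of -2.47 ± 0.50 missed the threshold (adjusted p = 0.0566, limma). Maff passed in 6 of 30 other settings, among them voom on recovered reads (adjusted p = 0.0418), and stayed uncalled in 24. Without TL replicates 1 and 5 its estimate was -2.19 (adjusted p = 0.477, limma). Junb was at 43.5 to 74.6 FPKM in TV and at 10.7, 43.0, 6.06 and 12.9 in TL, with TL replicate 4 close to TV. Stat3, the transducer of IL-6 family signals, was at 16.7 to 26.9 FPKM in TV and 10.1 to 15.9 in TL (-0.78 ± 0.17, adjusted p = 0.0717). In the integrated stress response, Chac1 and Ppp1r15a had estimates of -1.78 and -1.14 and Ddit3 one of 0.68, none of them called (-0.89, -0.84 and 0.44 without TL replicates 1 and 5), and Sesn2 was the 1 called gene of 23. Proteasome subunits gave 30 of 32 estimates below 0 with 0 calls (median -0.13), where 50.7% of all genes lay below 0. Their median relative to the TV mean was -0.29, 0.12, -0.22 and -0.15 in TL replicates 1, 4, 5 and 7. The TV libraries ran from -0.16 to 0.07, so TL replicate 4 lay above all of them and TL replicate 7 inside their range. Signalling lists were closer to balance, with 7 estimates above 0 and 11 below for NF-kB genes, 8 and 6 for Notch and 10 and 14 for the myostatin, activin and BMP list, each with 0 calls.

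**Figure D5:**
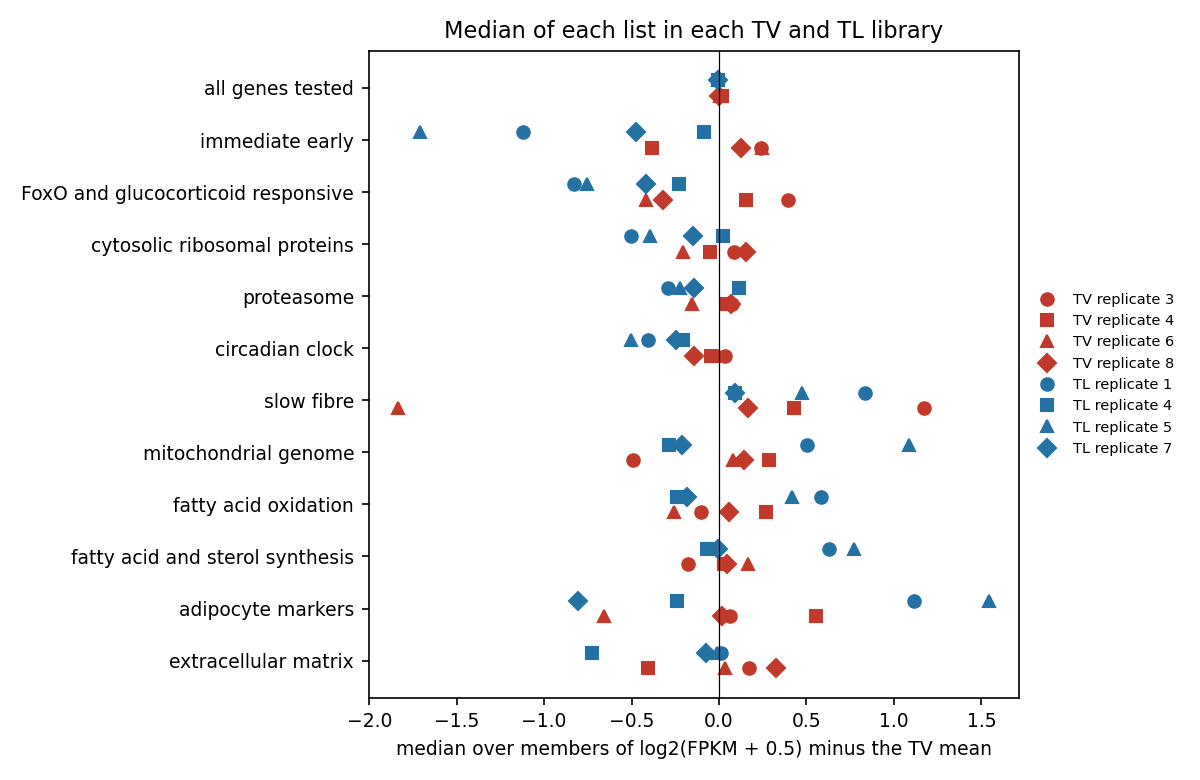
For 12 sets of genes, points give the median over members of log2(FPKM + 0.5) minus the TV mean in each TV (red) and TL (blue) library, with marker shapes for replicates. TL replicates 1 and 5 lie together for adipocyte markers (1.11 and 1.55), fatty acid synthesis (0.63 and 0.77) and immediate early genes (-1.12 and -1.71), and TL replicates 4 and 7 lie nearer to TV.

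Membrane and signalling genes held several of the calls that stood with any 1 library left out. Tnfrsf19, the TNF receptor family member TROY, was at 6.96, 6.46, 5.11 and 5.22 FPKM in TV replicates 3, 4, 6 and 8 and at 2.91, 2.33, 2.82 and 2.14 FPKM in TL replicates 1, 4, 5 and 7. TL lay clear of TV in every library (-1.08 ± 0.12, adjusted p = 0.00371, limma), with -1.23 and an adjusted p of 0.0407 without TL replicates 1 and 5. Etl4, the cytoskeletal gene also called Skt, was at 8.28, 8.62, 8.24 and 9.74 FPKM in TV and 5.01, 4.43, 5.02 and 4.54 in TL. Its spread was small in both groups (-0.81 ± 0.08, adjusted p = 0.00343; -0.88 and 0.0476 without TL replicates 1 and 5). Inka2, an inhibitor of the kinase PAK4, was at 0.970, 1.30, 1.81 and 1.78 FPKM in TV and 6.09, 4.56, 5.19 and 4.22 in TL. This rise held with any 1 library left out (1.502 ± 0.17, adjusted p = 0.00404, at most 0.021, limma), and its call ended without TL replicates 1 and 5 together (1.34, adjusted p = 0.102).

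Calcium carriers were among the lower genes. Slc8a1, the sodium-calcium exchanger NCX1, was at 4.04, 3.62, 6.07 and 4.86 FPKM in TV and 2.048, 1.72, 0.759 and 1.81 FPKM in TL (-1.33 ± 0.23, adjusted p = 0.0295, limma; -1.16 and 0.216 without TL replicates 1 and 5). No value was shared between the groups, and TL replicate 5 was lowest. Atp2c1, the calcium and manganese pump of the Golgi, was lower by 0.74, while of 22 genes in the calcium handling list 0 were called (median -0.03). The remaining signalling genes that were lower were Lrig1, a negative regulator of ErbB receptors (-0.50), Akap13, a kinase anchoring protein (-0.65), and Galnt17, an enzyme of the O-glycosylation family (-0.997). Galnt17 had a TL mean of 0.419 FPKM and passed the filter through TV (mean 1.34), and Lrig1 overlaps Slc25a26 on the other strand. Higher genes were Mpp3, a scaffold of the membrane guanylate kinase family, at 1.83 to 3.50 FPKM in TV and 5.28 to 7.23 in TL (1.19 ± 0.17), and Stxbp4, a binding partner of syntaxin 4, at 1.80 to 3.58 and 5.60 to 6.94 (1.17 ± 0.21). Miga2, a mitochondrial outer membrane protein for fusion, Prickle1, of planar cell polarity, and the kinase Map3k1 were higher by 0.92, 0.86 and 0.75. Ifit3b, an interferon-induced gene, was higher by 1.39 ± 0.25 (adjusted p = 0.0325), but it is nearly identical to Ifit3, which was not called (1.08 ± 0.28, adjusted p = 0.115), so the share of reads of each is uncertain; of 24 interferon responsive genes tested 0 were called.

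The axis of the drug target gave no call. Ret itself was at 0.546, 0.596, 0.398 and 0.703 FPKM in TV and 0.696, 0.373, 0.772 and 0.752 FPKM in TL, which overlap (0.11 ± 0.17, adjusted p = 0.802, limma). Gdnf, the ligand that gave the family its name, was at 2.04, 1.55, 1.63 and 1.02 FPKM in TV and 0.501, 1.28, 0.208 and 0.645 in TL (-0.89 ± 0.25, adjusted p = 0.136, limma; -0.51 without TL replicates 1 and 5). TL replicate 4 lay above the lowest TV library. Gfral had 0 reads in all 8 libraries and Gdf15 29 reads over TV and 8 over TL, both below the filter. Of 22 listed genes of this axis 14 were tested, with a median of -0.02.

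Markers of other cell types gave 0 calls in any list. The extracellular matrix list, which includes collagens made by fibroblasts, had 31 of 41 estimates below 0 with a median of -0.20. Over all genes, 50.7% of estimates lay below 0. Col1a1, a main fibrillar collagen, was at 0.691 to 3.16 FPKM in TV and 0.796 to 2.67 in TL, beside 16.1 to 39.1 in tumour-free mice. The estimate for TL minus TV was -0.12 ± 0.40 (adjusted p = 0.918, limma; -0.58 without TL replicates 1 and 5). Summed smooth muscle and pericyte markers, which include Des of muscle fibres, were 1594 to 2158 FPKM in TV and 1115 to 1715 in TL, the lowest exact permutation p of 14 library measures (two-sided p = 0.0571, adjusted p = 0.48, n = 4). Endothelial markers, 19 tested, had a median of -0.13 and macrophage markers, 14 tested, one of -0.19.

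Of the 66 called genes 10 were not protein-coding, and their levels carry extra doubt. Gm45819, which has no assigned function and lies at chr7:110119990-110121740 (mm10, plus strand), had the smallest p of all genes. It was at 0.984, 0.479, 0.478 and 0.700 FPKM in TV and 3.34, 2.43, 3.02 and 2.81 in TL (1.56 ± 0.15, adjusted p = 0.00214, limma; 1.44 and 0.0476 without TL replicates 1 and 5). The gap between the groups was wider than either group's range. Processed pseudogenes, 6 in number, share sequence with their parent genes; Gm9625 was at 50.7 to 64.4 FPKM in TV and 26.7 to 36.4 in TL, and Gm4366 at 75.7 to 88.4 and 35.2 to 43.6. Gm13050 and Gm12966 were also lower, by 0.77 and 0.80, and Gm14038 was higher by 0.67. The pseudogene Gm4613 was listed at 0 in 3 TV libraries and 0.149 FPKM in the other, against 1.96 to 3.12 in TL, and the small nuclear RNA gene Gm26064 at 0 in 3 TL libraries and 0.395 in the other, against 1.32 to 4.14 in TV. No fold is given for these, since a fitted change from 0 depends on the added constant. Gm7265 overlaps Nedd4, Gm26064 overlaps Ranbp9, and the antisense gene 9430073C21Rik overlaps the end of Myh2, so reads of the host genes may be counted in them. The antisense gene was at 1.18 to 1.43 FPKM in TV and 2.04 to 4.18 in TL, while Myh2, at 164 to 490 FPKM in TV and 186 to 561 in TL, was not called.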

How the data were processed

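Gastrocnemius RNA was sequenced from 12 mice (4 in each of the 3 groups NTV, TV and TL). The authors deposited FPKM for 54532 genes, with gene length as another deposited column; DESeq2, featureCounts 1.5.0-p3, HISAT2 2.05 and build mm10 appear in the submitters' processing notes, without the role of each. Multiplying FPKM by length and dividing by a step fitted for each library gave whole reads for 100% of genes above 0 (tolerance 0.1 read). The library scale so recovered matched median-of-ratios factors (relative difference 6.3e-12), which take most genes as unchanged. Between libraries of 1 group, chi-square divided by its degrees of freedom was 16.4 or more, so none repeated another.

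The comparison of TL with TV used limma 3.58.1 (R 4.3.3). It was fitted to log2(FPKM + 0.5) of all 12 libraries with a mean for each group and a trend of variance with level, and p was adjusted by Benjamini-Hochberg over 12696 genes. SE values use a single spread for each gene over the 3 groups. The added constant understates changes of low genes. The fit was tested on simulated data. It called 70 of 92 genes changed 2-fold, 86 of 94 changed 4-fold and 10 of 12185 unchanged genes. The simulated libraries varied independently, without the split seen within TL, so the simulation does not cover that split. Named genes are the 12 largest rises and 12 largest falls among called coding genes with a mean of at least 1 FPKM and no overlap, up to 3 called members or 2 abundant members of each of 53 gene lists, and Cebpd, Col1a1, Fbxo32, Fkbp5, Foxo1, Gdf15, Gfral, Mstn, Mt1, Mt2, Myh1, Myh2, Myh4, Myh7, Pdk4, Ppargc1a, Ret, Stat3, Trim63 and Ucp3; a selection is given. The remaining called genes, and uncalled ones such as Scd1, Fasn, Ucp1, Maff, Sesn1 and Gdnf, were added after their values were seen. Of 1163 listed symbols 1158 were found and 1053 tested, of which 10 were called. Genes and lists were chosen with earlier results of these data known. Single library measures were compared by exact two-sided permutation over 70 splits. Other pseudocounts, filters, scalings, variance models, covariates, voom on recovered reads and left-out libraries were tried. Plots were made with matplotlib 3.10.9, pandas 2.3.3 and numpy 2.4.6 under Python 3.11.15.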

Additional observations from a re-analysis of the deposited data

Results flagged for a closer look

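Checks covered 280 groups of 4 libraries, for genes named or listed and for library measures such as total reads and summed markers. In 16 of them (5.71%), all for genes, 1 library stood far from the other 3, where chance alone gives about 1 in 20 (5%). In TV, replicate 4 stood apart for Hist1h1b (0.377 FPKM), Klf11 (4.55 FPKM), Sesn2 (0.644 FPKM) and Thrsp (14.3 FPKM), and replicate 8 for Ciart (8.70 FPKM), Nr1d2 (32.5 FPKM) and Insig1 (3.29 FPKM). TV replicate 3 did for Gm4613 (0.149 FPKM) and Zswim4 (4.37 FPKM), and TV replicate 6 for Eif4b (91.8 FPKM). In TL, replicate 4 stood apart for Rdh13 (2.91 FPKM), Tmbim1 (5.69 FPKM) and Mt2 (71.2 FPKM), replicate 7 for Gm26064 (0.395 FPKM), replicate 5 for Zfp213 (1.16 FPKM) and replicate 1 for Ucp1 (58.3 FPKM).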

How the results depend on the processing

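No paired analysis was possible because TL and TV share only 1 replicate number. All 66 called genes kept the sign of their estimate in all 30 other settings, but the number called moved. Against 66 genes called overall and 10 among listed genes, there were 31 and 4 without a filter on low values, 8 and 1 with only the TL and TV libraries, 226 and 31 with library weights, 4 and 0 without TL replicates 1 and 5 together, 0 and 0 when the Ucp1-high libraries (over 2 FPKM) were dropped (904 genes at an unadjusted p under 0.05), and 8 and 0 with the mitochondrial share as a covariate. It was 43 with an equal total per library and 34 with the adipocyte markers as a covariate. Voom on recovered reads called 75, with 59 shared. With 1 library left out, the counts ran from 7 to 282 overall and from 0 to 48 among listed genes. The cause of these shifts was not tested.

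Of 59 uncalled genes named or listed, 20 were called in some setting and 12 changed sign in some setting. Sesn1 was called in 4 of 30 settings, Stat3 in 3, Fbxo32 in 2 and Mt1 in 1. Trim63, Foxo1 and Pdk4 were called in 0. With 1 library left out, Col1a1 ran from -0.46 to 0.15, Fkbp5 from -0.42 to 0.12, Myh2 from -0.43 to 0.13, Myh7 from -0.29 to 0.75 and Adipoq from -0.088 to 0.94. Without TL replicates 1 and 5, with and without the further Ucp1-high NTV library, values were 0.27 for Mt2, 0.19 for Fkbp5, -0.25 for Scd1, -0.10 for Acly, 0.0017 for Myf6, -0.013 for Ret, -0.86 for Adipoq, -0.20 for Ucp1 and -0.23 for mt-Co1. With the mitochondrial share as a covariate they were 0.27 for Mt2, 0.31 for Fkbp5, -0.61 for Adipoq and -0.19 for mt-Co1. Adipoq was -0.27 with the adipocyte markers as a covariate, and Col1a1 0.31 with library weights. Genes with few reads, such as Ret and Gdf15, are limited by depth.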
